A study of Mus musculus with 14 samples.

Results

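The galectin family was followed here through 7 genes: Lgals1, Lgals2, Lgals3, Lgals4, Lgals8 and Lgals9, which encode galectins, and Lgals3bp, which encodes a secreted glycoprotein that galectins bind. They are represented by 9 of the 41174 distinct probes on the array, and by 7 of 33944 genes, of which 30833 were bright enough to test, all 7 members among them. The genes were chosen from earlier results on these same arrays, by their log2 ratios over the 3 diets. Their differences between diets are therefore given as a description, with no p-value.

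Liver RNA came from male C57BL/6 mice aged 1 year that ate freely. The AIN-93G standard diet was fed to 5 mice, AIN-93G changed so that 60% of its calories came from fat to 5 mice (high-calorie), and the high-calorie diet containing 0.04% resveratrol, a plant polyphenol, to 4 mice. No group here received resveratrol on the standard diet, and whole liver was used, so fewer cells of a type and less RNA per cell cannot be told apart. On each 2-colour array an animal's RNA was labelled with Cy3 and set against a Cy5-labelled pool of 5 standard-diet livers, always in this dye orientation, and the labels do not say whether the pool came from the mice on the arrays. A value below is the log2 ratio of animal to pool unless called a difference, and SD means standard deviation. Per the file headers, arrays differ in the day on which their images were extracted and in slide number.

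Between 77.9% and 92.4% of an array's probes were well above background in Cy3, and the median net Cy3 signal was 48.6 to 85.6 intensity units on standard-diet, 57.7 to 114 on high-calorie and 65.9 to 100 on resveratrol arrays. The brightest array of its group was that of standard-diet mouse 5, high-calorie mouse 5 and resveratrol mouse 4. All 10 hepatocyte markers tested were well above background on all 14 arrays. Resveratrol mouse 3 stood apart, with a mean correlation of 0.481 with the other arrays of its group. For slides the headers give numbers only. The 2 slide series were made here by splitting the sorted numbers at their widest gap. Image extraction day 2 held no resveratrol array, and slide series 1 held no standard-diet array. Day 1 held high-calorie mice 1 and 4 alone of their group, and slide series 2 held resveratrol mouse 2 alone of its group. A call lost within these subsets is therefore not read as an effect of day or slide. Median scaling in place of loess moved the share of calls that were higher from 56.1% to 80% in high-calorie against standard-diet mice and from 59.1% to 26.5% in resveratrol against high-calorie mice.

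Galectins are lectins that bind beta-galactosides on glycoproteins and glycolipids. They are made in the cytosol without a signal peptide, leave cells by an unconventional route, and can cross-link receptors at the cell surface or bind glycans exposed inside damaged vesicles. By domain layout, galectin-1 and galectin-2 are prototype galectins, galectin-3 is a chimera with a long N-terminal tail, and galectin-4, galectin-8 and galectin-9 are tandem-repeat galectins. In liver, galectin-1 and galectin-3 are known from activated stellate cells and macrophages, and galectin-9 from Kupffer cells.

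Promoter windows from RefSeq (build GRCm38.p6, 250 bases before to 50 bases after the gene's start) were held for 6 of the 7 members, all but Lgals1. The window of Lgals3bp is shown because values of interferon-response genes are set beside this gene further on, and that of Lgals9 because it was the only member window with a match to their motif. Capitals mark matches to the interferon-stimulated response element, searched on both strands as GAAA, any 2 bases and GAAA.
Lgals9, chr11:78984875-78985174, minus strand: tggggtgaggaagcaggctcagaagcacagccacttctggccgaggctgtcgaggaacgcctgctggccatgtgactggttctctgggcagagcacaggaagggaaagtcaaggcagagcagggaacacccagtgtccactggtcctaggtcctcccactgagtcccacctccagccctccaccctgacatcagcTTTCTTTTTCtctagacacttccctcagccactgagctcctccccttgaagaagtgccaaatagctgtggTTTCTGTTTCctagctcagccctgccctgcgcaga
Lgals3bp, chr11:118401910-118402209, minus strand: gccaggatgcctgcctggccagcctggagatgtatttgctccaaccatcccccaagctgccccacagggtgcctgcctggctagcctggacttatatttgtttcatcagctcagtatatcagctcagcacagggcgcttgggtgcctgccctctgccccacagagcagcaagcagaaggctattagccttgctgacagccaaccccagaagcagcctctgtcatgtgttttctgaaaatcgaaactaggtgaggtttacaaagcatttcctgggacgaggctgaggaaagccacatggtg
The Lgals9 window held 2 matches, at positions -55 to -46 and 16 to 25 from the start, both on the strand opposite to the gene, so that the printed letters show TTTC on either side of 2 bases. The Lgals3bp window held none, which says only that these letters are not in it. Among all 32851 windows, 3.44% held the motif. Of the interferon-response genes listed for comparison, 17 had a window and 10 of these held it.

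A further 13 motifs were searched on both strands, and the matches are a description of letters. The gamma-activated site TTCNNNGAA (8.3% of windows), the PPAR response element (AGGTCA repeated after 1 base, 0.0396%), the TATA box TATAAA (13.6%), the AP-1 site TGANTCA (7.81%), the E box CACGTG (7.15%) and the cAMP response element TGACGTCA (1.79%) were found in none of the 6 members. The NF-kappa-B motif (GGGA, any 4 bases and CC, 20.7%) was found in Lgals3 and Lgals9, and a looser form of it (GGG, any 5 bases and CC, 50.8%), which overlaps it, in Lgals3, Lgals4, Lgals8 and Lgals9. CCAAT (37.4%) was found in Lgals3, Lgals4 and Lgals8, and the GC box GGGCGG (35.7%) in Lgals3 and Lgals4. TTC and GAA set 4 bases apart (6.95%) were found in Lgals3, and the ETS motif GGAAGT (23.8%) and GAAANNGAA (8.56%), the latter within the longer element, in Lgals9.

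Among the members, 3 were called higher in high-calorie than in standard-diet mice: Lgals1, Lgals3bp and Lgals8. A call means a Benjamini-Hochberg adjusted p under 0.05 in limma over all genes tested. In this comparison 9.74% of all genes were called, 5.46% as higher. The other 4 members did not pass. The median difference over the 7 members was 0.35 on the log2 scale, against -0.0030 over all genes, and since these values chose the members nothing is read from the count or the median.

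In resveratrol against high-calorie mice, 2 members, Lgals1 and Lgals3bp, were called lower, beside 5.69% of all genes called and 2.33% called lower. The median difference was -0.085 over the members and -0.0060 over all genes. In resveratrol against standard-diet mice no member was called by limma, beside 0.234% of all genes called. At an unadjusted p under 0.05, limma counted 2 members and 3275 genes there. The 3 comparisons share arrays with one another, so their values are given side by side only.

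**Figure D1:**
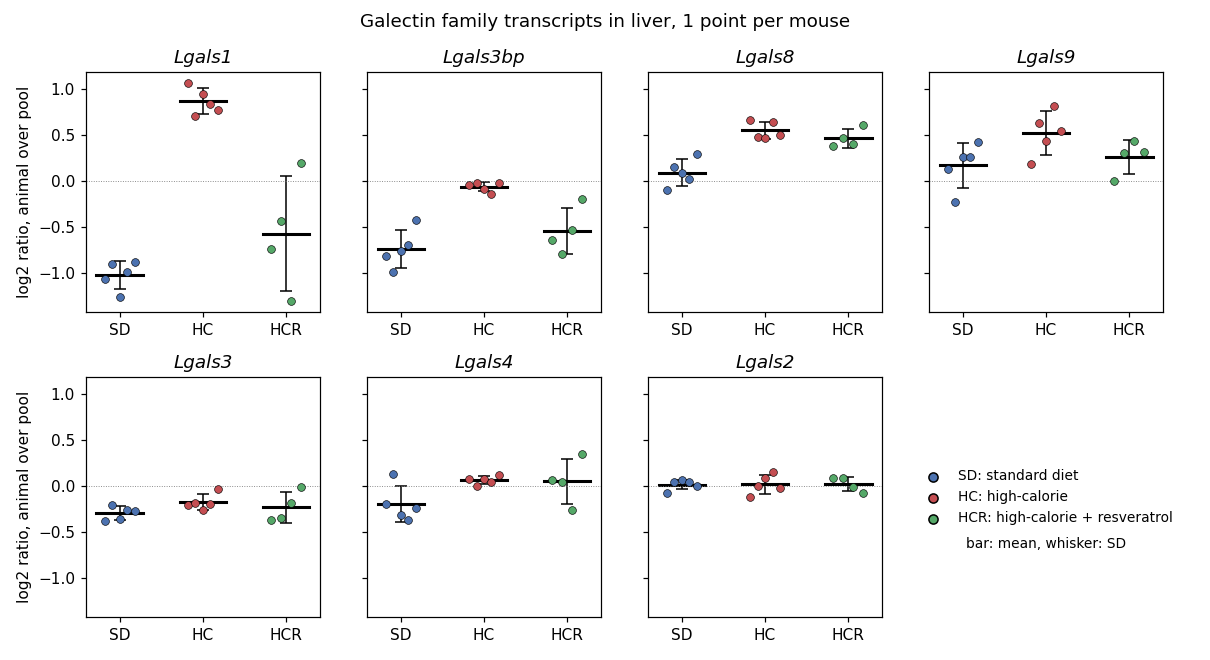
Log2 ratio of animal to reference pool (vertical axis) for the 7 members, 1 point per mouse, with the standard-diet (SD), high-calorie (HC) and resveratrol (HCR) mice on the horizontal axis. Bars are group means and whiskers the standard deviation; the high-calorie mice lie above all standard-diet mice for Lgals1, Lgals3bp and Lgals8, and the resveratrol mice are spread most widely for Lgals1.

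**Figure D2:**
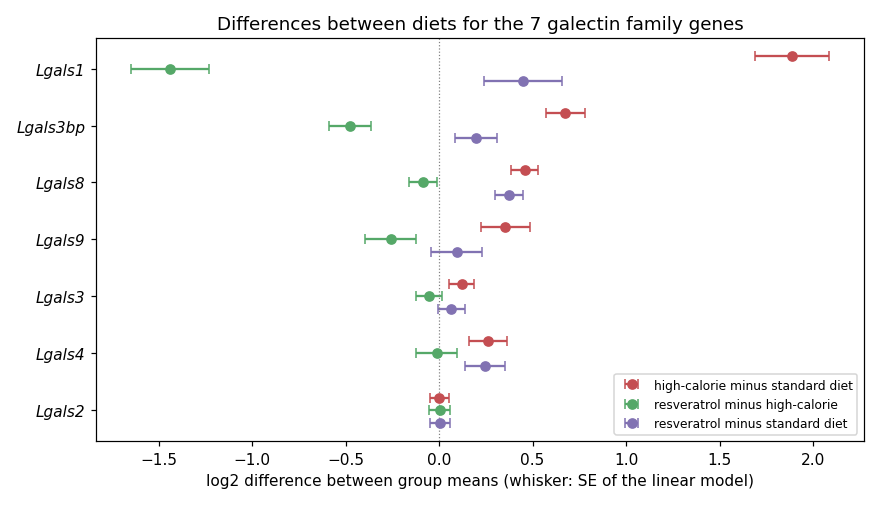
Log2 difference between group means (horizontal axis) for the 7 members (vertical axis) in the 3 comparisons, with the standard error of the linear model as whiskers. Lgals1 has the difference farthest from 0 in both comparisons with the high-calorie group, 1.89 and -1.44, and Lgals2 lies at 0 in all 3.

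Lgals1, which encodes galectin-1, a dimeric lectin that cross-links cell-surface glycoproteins, had the widest range of the members. Its log2 ratios were -1.07, -0.91, -1.27, -0.99 and -0.88 in the 5 standard-diet mice. They were 1.06, 0.70, 0.94, 0.83 and 0.77 in the 5 high-calorie mice. They were -0.75, -0.44, -1.31 and 0.19 in the 4 resveratrol mice. Every standard-diet mouse lay below the pool and every high-calorie mouse above it, and the high-calorie mice overlapped neither other group, while the resveratrol mice overlapped the standard-diet mice.

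The group means of Lgals1 were -1.02 ± 0.16 (SD, n = 5) on the standard diet, 0.86 ± 0.14 (SD, n = 5) on the high-calorie diet and -0.57 ± 0.63 (SD, n = 4) with resveratrol. The high-calorie mean was 3.69-fold the standard-diet mean, a log2 difference of 1.89 ± 0.20 (SE), the 12th highest of the 30833 genes. The log2 difference between resveratrol and high-calorie mice was -1.44 ± 0.21 (SE), the 6th lowest. Between resveratrol and standard-diet mice it was 0.45 ± 0.21 (SE), which did not pass.

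The spread of Lgals1 among the resveratrol mice lay at percentile 99.4 of all genes' standard deviations in that group, against 79.9 among standard-diet and 92 among high-calorie mice. Mouse 4 was the highest of the group and mouse 3 the lowest. Without mouse 3 the difference from standard-diet mice was 0.69, and without mouse 4 it was 0.19. Within image extraction day 1 the high-calorie minus standard-diet difference was 2.06 and within day 2 it was 1.70, both called. The resveratrol minus high-calorie difference was -1.52 within day 1, where high-calorie mice 1 and 4 remained of their group and it was not called.

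The net Cy3 signal of the Lgals1 probe was 321 to 648 intensity units on standard-diet, 1320 to 3490 on high-calorie and 384 to 1230 on resveratrol arrays, and the pool's Cy5 signal was 1770 to 3250. With the array's median brightness as a covariate the 2 differences that passed were 1.79 and -1.41, both still called. Why the standard-diet mice lay below a pool of standard-diet livers was not tested. With the dye orientation fixed, a gene's dye effect and the pool's content cannot be told apart. A position above or below the pool is therefore only a description, for this gene and the others.

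Lgals3bp encodes galectin-3-binding protein, a heavily glycosylated secreted protein with a scavenger-receptor domain that binds galectin-3 and galectin-1. Its log2 ratios were -0.82, -0.99, -0.77, -0.70 and -0.42 in standard-diet mice. They were -0.05, -0.03, -0.10, -0.14 and -0.02 in high-calorie mice, and -0.65, -0.79, -0.54 and -0.20 in resveratrol mice. No mouse lay above the pool, the high-calorie mice were the closest to it and overlapped neither other group, and the resveratrol mice overlapped the standard-diet mice.

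The means of Lgals3bp were -0.74 ± 0.21 (SD, n = 5), -0.066 ± 0.050 (SD, n = 5) and -0.55 ± 0.25 (SD, n = 4) in the order standard diet, high-calorie and resveratrol. The high-calorie mean was 1.6-fold the standard-diet mean, a log2 difference of 0.67 ± 0.11 (SE). The resveratrol mean lay -0.48 ± 0.11 (SE) from the high-calorie mean and 0.20 ± 0.11 (SE) from the standard-diet mean, and the latter did not pass. The call of a lower level with resveratrol was met in 16 of 29 alternative analyses, with differences of -0.74 to -0.36 over all 29. It was lost without high-calorie mouse 1, 2 or 5 (-0.47, -0.47 and -0.47) and without resveratrol mouse 1, 2 or 3 (-0.44, -0.40 and -0.48). It was also lost within image extraction day 1 (-0.45), where high-calorie mice 1 and 4 remained of their group, and with that day as a block (-0.45). Within slide series 2, where resveratrol mouse 2 was alone in its group, the difference was -0.74. The higher level in high-calorie mice was 0.67 within day 1 and 0.66 within day 2, where it was not called.

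Lgals8 encodes galectin-8, a tandem-repeat lectin that marks damaged vesicles for autophagy. With its brighter probe the log2 ratios were -0.10, 0.15, 0.087, 0.015 and 0.29 in standard-diet mice. They were 0.66, 0.47, 0.46, 0.63 and 0.50 in high-calorie mice, and 0.37, 0.47, 0.40 and 0.60 in resveratrol mice. All high-calorie and all resveratrol mice lay above all standard-diet mice, and the high-calorie and resveratrol mice overlapped.

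The high-calorie minus standard-diet difference of Lgals8 was 0.46 ± 0.071 (SE), a fold of 1.37, and the resveratrol minus high-calorie difference was -0.085 ± 0.075 (SE). The resveratrol minus standard-diet difference was 0.37 ± 0.075 (SE), which did not pass although the groups did not overlap. It passed in 5 of 29 alternative analyses: with array weights (0.39), within image extraction day 1 (0.46), and without standard-diet mouse 2 (0.39), standard-diet mouse 5 (0.42) or resveratrol mouse 3 (0.39). The high-calorie minus standard-diet difference was 0.65 within day 1, called, and 0.26 within day 2, not called.

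The dimmer Lgals8 probe gave smaller differences, 0.23 ± 0.079 (SE) for high-calorie minus standard-diet mice and 0.14 ± 0.084 (SE) for resveratrol minus standard-diet mice, and its groups overlapped. The log2 ratios of both probes had a correlation of 0.661 over the 14 arrays. With the mean of both probes the high-calorie minus standard-diet difference was 0.34 and was still called.

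Lgals9 encodes galectin-9, a tandem-repeat lectin and ligand of the T cell receptor TIM-3. Its log2 ratios were 0.13, -0.23, 0.25, 0.25 and 0.42 in standard-diet mice, 0.18, 0.63, 0.43, 0.81 and 0.54 in high-calorie mice, and -0.0022, 0.30, 0.43 and 0.31 in resveratrol mice. High-calorie mouse 1 lay within the standard-diet range and the other 4 above it. The differences were 0.35 ± 0.13 (SE) for high-calorie minus standard-diet, -0.26 ± 0.14 (SE) for resveratrol minus high-calorie and 0.094 ± 0.14 (SE) for resveratrol minus standard-diet mice, and none passed. Without standard-diet mouse 5 the first was 0.42 and was called.

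Lgals3 encodes galectin-3, the chimera galectin that is widely used as a macrophage marker. Its log2 ratios were -0.39, -0.21, -0.36, -0.27 and -0.27 in standard-diet mice, -0.20, -0.18, -0.26, -0.20 and -0.03 in high-calorie mice, and -0.37, -0.35, -0.19 and -0.0097 in resveratrol mice. All 14 mice lay below the pool, and all groups overlapped. The differences were 0.12 ± 0.067 (SE), -0.055 ± 0.071 (SE) and 0.065 ± 0.071 (SE) in the same order, and none passed.

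Lgals4 encodes galectin-4, a tandem-repeat lectin best known from gut epithelium. With the brighter probe its log2 ratios were -0.20, 0.13, -0.32, -0.37 and -0.24 in standard-diet mice, 0.077, 0.0015, 0.077, 0.042 and 0.12 in high-calorie mice, and 0.069, 0.045, -0.26 and 0.34 in resveratrol mice. Standard-diet mouse 2 lay above all high-calorie mice and the other 4 standard-diet mice below all of them. The high-calorie minus standard-diet difference of 0.26 ± 0.10 (SE) did not pass, and it was called without standard-diet mouse 2 (0.34) and with array weights (0.33). The other differences were -0.014 ± 0.11 (SE) and 0.25 ± 0.11 (SE).

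The dimmer Lgals4 probe, well above background on 11 of 14 arrays, gave 0.048 ± 0.084 (SE), -0.073 ± 0.089 (SE) and -0.025 ± 0.089 (SE), with a correlation of 0.628 between both probes. Of 5 intestinal epithelium markers, Fabp2 rose (1.37, limma adjusted p = 0.0206) and Cdh17 fell (-0.17, adjusted p = 0.0462) in high-calorie against standard-diet mice. The other 3 did not pass, and Cdx2 among them was well above background on 5 of 14 arrays. In this comparison 9.74% of all genes were called. The median difference of the 5 markers was -0.059, with 2 of 5 above 0. The part of these markers in the Lgals4 values was not tested. The list's summed net Cy3 signal was 1769 to 5274 on standard-diet, 5540 to 14206 on high-calorie and 1312 to 5655 intensity units on resveratrol arrays. Such sums, here and below, are raw signal that is not normalised, and arrays differed in brightness. A sum is also weighted towards a list's brightest genes, so it is not read as a change of the whole list. The hepatocyte sum was 106307 to 218262 on standard-diet and 142574 to 244591 on high-calorie arrays, although 3 of its 10 markers fell.

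Lgals2 encodes galectin-2, a prototype galectin. Its log2 ratios ran from -0.073 to 0.061 on the standard diet, from -0.12 to 0.15 on the high-calorie diet and from -0.078 to 0.086 with resveratrol. The ranges lay within one another and the 3 differences were 0.001 ± 0.052 (SE), 0.003 ± 0.055 (SE) and 0.004 ± 0.055 (SE). The net Cy3 signal of its probe was 29.6 to 72.2 intensity units, well above background on all 14 arrays.

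**Figure D3:**
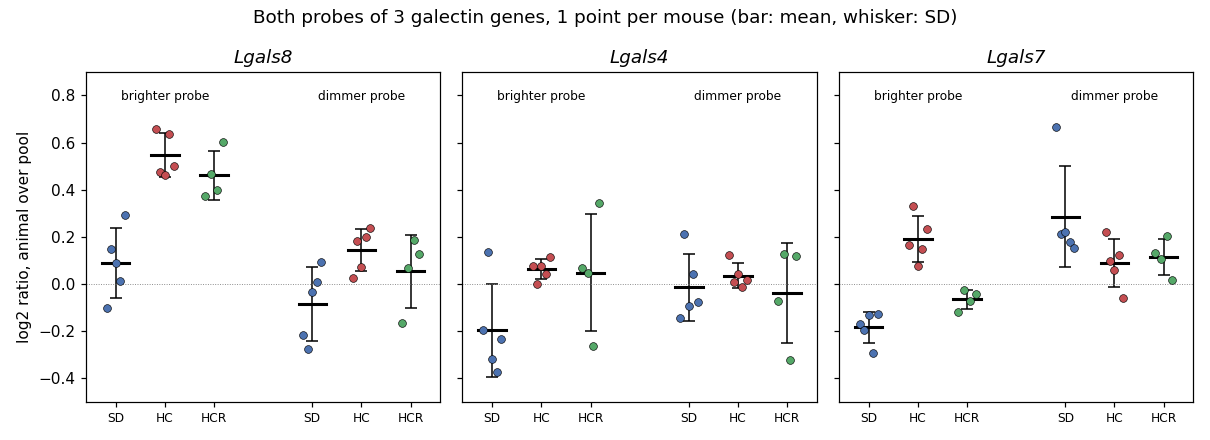
Log2 ratio of animal to pool (vertical axis) for both probes of Lgals8, Lgals4 and Lgals7, 1 point per mouse, with standard-diet (SD, blue), high-calorie (HC, red) and resveratrol (HCR, green) mice on the horizontal axis. Bars are means and whiskers the standard deviation; the brighter Lgals8 probe separates the standard-diet mice from the others and its dimmer probe does not, and the Lgals7 probes differ in opposite directions.

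Of 5 other galectin genes, 4 were tested, and Lgals12 was well above background on 2 arrays. Of the 4, 1 was called in high-calorie against standard-diet mice, beside 9.74% of all genes. In resveratrol against high-calorie mice 1 was called, beside 5.69% of all genes. Lgals7, known from stratified epithelia, rose in high-calorie against standard-diet mice (0.38 ± 0.048 (SE), limma adjusted p = 0.000457) and fell in resveratrol against high-calorie mice (-0.26 ± 0.051 (SE), adjusted p = 0.0147). That probe was well above background on 2 of 5 standard-diet arrays. The other Lgals7 probe, well above background on all 14 arrays, gave -0.20 ± 0.086 (SE) in the first comparison, and the correlation between both was -0.447. On standard-diet arrays its net Cy3 signal was 33.6 to 62.7 intensity units, against 24.5 to 39.3 for the called probe. With the mean of both probes the differences were 0.089 (adjusted p = 0.284) and -0.12 (adjusted p = 0.241), and with median scaling 0.10 (adjusted p = 0.236) and -0.12 (adjusted p = 0.34). Without resveratrol mouse 1 the second difference was -0.24 (limma adjusted p = 0.0602), and within image extraction day 1 it was -0.22 (adjusted p = 0.139).

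Lgalsl, a galectin-like gene, gave 0.24 ± 0.097 (SE), -0.20 ± 0.10 (SE) and 0.038 ± 0.10 (SE) in the 3 comparisons, and none passed. Grifin, the lens galectin-related gene, gave 0.025, -0.096 and -0.070, and Lgals6 gave 0.048, 0.009 and 0.057. The Lgals6 probe matched no RefSeq symbol and kept the file's name, and its net Cy3 signal was 41.1 to 77.3 intensity units. What it detects was not tested. In resveratrol against standard-diet mice 0 of the 4 were called by limma, with 1 at an unadjusted p under 0.05.

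Among 14 glycoproteins known to bind galectins, Mcam, a cell adhesion molecule, and Mertk, a receptor for engulfing dead cells, rose in high-calorie against standard-diet mice, by 0.21 ± 0.053 (SE, limma adjusted p = 0.028) and 0.24 ± 0.063 (SE, adjusted p = 0.0288). Nrp1, a co-receptor for semaphorins and VEGF, fell (-0.24 ± 0.061 (SE), adjusted p = 0.0248). In resveratrol against high-calorie mice Nrp1 rose (0.27, limma adjusted p = 0.0278), and Mcam (-0.26, adjusted p = 0.0189) and Mertk (-0.24, adjusted p = 0.0474) fell. The list's median difference was -0.0065 and -0.032 in these comparisons. Beside the 3 of 14 called in each, 9.74% of all genes were called in the first and 5.69% in the second. In resveratrol against standard-diet mice limma called 0 of 14, with 1 at an unadjusted p under 0.05; Ptprc, the leukocyte antigen CD45, gave 0.31 (adjusted p = 0.24) and Havcr2, which encodes TIM-3, -0.12 (adjusted p = 0.483). Against the standard diet, all 3 of these calls were lost within image extraction day 1 (Nrp1 -0.31, Mcam 0.22 and Mertk 0.20) and day 2 (-0.15, 0.19 and 0.26), within slide series 2 (-0.24, 0.20 and 0.28), with median scaling (-0.13, 0.14 and 0.026), with Cy3 alone, with the deposited scores and with the brightness covariate. They were also all lost without standard-diet mouse 4 (-0.23, 0.19 and 0.24), high-calorie mouse 2 (-0.25, 0.19 and 0.25) or high-calorie mouse 5 (-0.24, 0.21 and 0.22). Without standard-diet mouse 3 or high-calorie mouse 1 only Mertk of the 14 was called, and without high-calorie mouse 4 only Nrp1. In the comparison of resveratrol with high-calorie mice, all 3 calls were lost without high-calorie mouse 2 or resveratrol mouse 1 or 3, and without high-calorie mouse 5 only Mcam was called.

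None of 13 enzymes that branch or cap the glycans galectins bind passed in limma in any comparison, with 3, 1 and 3 at an unadjusted p under 0.05 in the order used above. Over all 30833 genes tested, limma counted 8619, 6965 and 3275 at this threshold, so nothing is read from such counts. Man2a1, a Golgi mannosidase, gave 0.30 (limma adjusted p = 0.0548) and Mgat2, an N-acetylglucosaminyltransferase, -0.33 (adjusted p = 0.124) in high-calorie against standard-diet mice. In resveratrol against high-calorie mice Mgat1, which starts hybrid and complex N-glycans, gave -0.30 (limma adjusted p = 0.0642). The median differences of the list were -0.043, -0.012 and -0.058.

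None of 9 genes of the response to damaged vesicles, in which galectin-8 takes part, passed in limma in any comparison, with 3, 0 and 1 at an unadjusted p under 0.05. Beside these stand 8619, 6965 and 3275 of all 30833 genes. Map1lc3b, an autophagosome protein, gave 0.30 (limma adjusted p = 0.0758) and Tax1bp1, an autophagy receptor, 0.29 (adjusted p = 0.122) in high-calorie against standard-diet mice. The median differences of the list were 0.064, -0.10 and -0.032.

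Genes most like each member were ranked by the Pearson correlation of log2 ratios over the 14 arrays among 17156 genes with a symbol, as a description over arrays that share the diets and the reference pool. For Lgals1 they were Cd36 (0.982), a fatty acid transporter, S100a10 (0.979), a partner of annexin A2, and Gbp3 (0.978), an interferon-inducible GTPase. Cd36 had differences of 2.26, -1.37 and 0.89 in the order high-calorie minus standard diet, resveratrol minus high-calorie and resveratrol minus standard diet. For Lgals3bp they were Oasl1 (0.965), an interferon-inducible gene, Nadk (0.962), the NAD kinase, and Gfm2 (0.961). For Lgals8 they were Mfsd2a (0.913), a lysophosphatidylcholine transporter, Paqr9 (0.912) and Ctdspl2 (0.91).

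The genes most like Lgals9 were Nsf (0.934), Rwdd4a (0.932) and Bzw1 (0.923), and those most like Lgals3 were Ptgs1 (0.891), Pilrb1 (0.863) and Csf2ra (0.861). For Lgals4 they were Tanc2 (0.872), Mapk8 (0.859) and Cmbl (0.857), and for Lgals2 4930444P10Rik (0.846), Olfr1045 (0.79) and Steap1 (0.783).

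Between members the highest correlation over the 14 arrays was 0.88, of Lgals1 with Lgals3bp, which was 0.371 after each diet's mean was removed. Lgals1 with Lgals8 gave 0.774 and 0.531 within diets, and Lgals3bp with Lgals8 gave 0.768 and 0.466. Lgals1 with Lgals4 gave 0.64 over all arrays and 0.751 within diets, with resveratrol mouse 3 lowest and mouse 4 highest of its group for both genes.

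Genes of the interferon response were set beside Lgals3bp by choice, and Gbp3 of this list was also among the 3 genes most like Lgals1. Of 23 tested, 12 rose in high-calorie against standard-diet mice, with a median difference of 0.43, among them Gbp3 (1.28, limma adjusted p = 0.000101), Ifit3 (1.12, adjusted p = 0.000304), Usp18 (1.00, adjusted p = 0.000379) and Ifit1 (0.90, adjusted p = 0.000425). Of the same genes 8 fell in resveratrol against high-calorie mice, with a median of -0.25. Over all genes, 5.46% were called higher in the first of these comparisons and 2.33% lower in the second. In resveratrol against standard-diet mice limma called 0, with 3 at an unadjusted p under 0.05. The list mean was 0.032 in standard-diet mouse 5 and 0.17 in resveratrol mouse 4, the highest of each group, and these were also the highest mice of their groups for Lgals3bp. The arrays of these mice were also the brightest of their groups, with a median net Cy3 signal of 85.6 and 100 intensity units. The part of array brightness in this likeness was not tested. The part of the interferon-response genes in the Lgals3bp values was not tested either.

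Markers of stellate cells, the collagen-making cells of the liver, were set beside Lgals1 by choice, and its 3 most similar genes included none of them. Of 10 tested, 5 rose, 1 fell and 4 did not pass in high-calorie against standard-diet mice, beside 5.46% of all genes called higher. Those that rose included the collagen genes Col3a1 (0.75, limma adjusted p = 0.000426), Col1a2 (0.61, adjusted p = 0.00051) and Col1a1 (0.24, adjusted p = 0.017) and Lrat, which stores retinol as esters (0.36, adjusted p = 0.00146). Acta2, the myofibroblast actin, named after its values were seen, fell (-0.19, limma adjusted p = 0.0175). In resveratrol against high-calorie mice 4 fell and 0 rose, beside 2.33% of all genes called lower. The list mean ranged from -0.062 to 0.11 on the standard diet, from 0.15 to 0.25 on the high-calorie diet and from -0.088 to 0.12 with resveratrol, and its summed net Cy3 signal 2524 to 5006, 3238 to 7108 and 3549 to 4712 intensity units. Resveratrol mouse 4, the highest of its group for Lgals1, had a list mean of -0.036. Des was well above background on fewer than 4 arrays and was not tested, and the part of stellate cells in the Lgals1 values was not tested.

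Of 14 Kupffer cell and macrophage markers, Ctss, a lysosomal protease, rose in high-calorie against standard-diet mice (1.07, limma adjusted p = 0.00951). Csf1r, the receptor of macrophage growth factor CSF1, rose in resveratrol against high-calorie mice (0.28, limma adjusted p = 0.0143). In each comparison the other 13 did not pass, beside 9.74% and 5.69% of all genes called, so nothing is read from these counts. The list mean ranged from -1.07 to -0.67 on the standard diet, from -0.62 to -0.35 on the high-calorie diet and from -0.92 to 0.17 with resveratrol, highest in resveratrol mouse 4, which was also the highest of all mice for Lgals3. Its summed net Cy3 signal was 1740 to 4350, 3281 to 9478 and 2941 to 9680 intensity units. Of 8 markers of recruited macrophages, Spp1 (0.76, limma adjusted p = 0.0146) and Ccr2 (0.23, adjusted p = 0.043) rose in high-calorie against standard-diet mice. The other 6 did not pass, among them Cd9 (-0.63, limma adjusted p = 0.0585), named after its values were seen. This list's median difference was 0.075, with 5 of 8 genes above 0, beside 5.46% of all genes called higher. Ccr2 was well above background on 10 of 14 arrays. Calls of cell type markers and of interferon-response genes were not followed under the alternative analyses. The part of macrophages in the values of Lgals1, Lgals3 and Lgals9 was not tested.

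Of 6 adipocyte markers, Cfd, the serum protease adipsin, rose in high-calorie (2.52, limma adjusted p = 0.000343) and in resveratrol mice (2.57, adjusted p = 0.00535) against the standard diet, Fabp4 rose in high-calorie mice (1.60, adjusted p = 0.00657) and Retn fell (-0.20, adjusted p = 0.0248). Retn rose in resveratrol against high-calorie mice (0.23, limma adjusted p = 0.023), and neither Cfd nor Fabp4 was called. Over all genes, 9.74% were called in high-calorie and 0.234% in resveratrol mice against the standard diet, and 5.69% in resveratrol against high-calorie mice. The list mean ranged from -0.52 to -0.36 on the standard diet, from 0.015 to 0.39 on the high-calorie diet and from 0.016 to 0.68 with resveratrol, highest in resveratrol mouse 2. The list's median difference of high-calorie from standard-diet mice was 0.011, with 3 of 6 genes above 0, and Adipoq (-0.088) and Plin1 (-0.084), named after their values were seen, did not pass. Its summed net Cy3 signal was 551 to 899, 1030 to 2586 and 1285 to 2421 intensity units, and the part of adipocytes in the Lgals1 values was not tested.

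Of 10 hepatocyte markers, 3 fell in high-calorie against standard-diet mice, namely Ahsg (-0.74, limma adjusted p = 0.0204) and Apoa1 (-0.64, adjusted p = 0.0354), both made for the blood plasma, and Hnf4a, a transcription factor (-0.15, adjusted p = 0.0403). Ahsg rose in resveratrol against high-calorie mice (0.71, limma adjusted p = 0.0424), beside 5.69% of all genes called. Of 8 sinusoidal endothelium markers, Pecam1 (0.22, limma adjusted p = 0.0237) and Cdh5 (0.41, adjusted p = 0.0443) rose in high-calorie against standard-diet mice. Pecam1 was well above background on 9 of 14 arrays. Of 11 lymphocyte markers tested, Cd3d, a chain of the T cell receptor complex, fell (-0.25, limma adjusted p = 0.0361) and the other 10 did not pass. In this comparison 9.74% of all genes were called, so nothing is read from 1 call among 11 lymphocyte markers. The neutrophil list mean of 5 genes was 0.65 in resveratrol mouse 3 and below 0 in the other 3 mice of that group, and mouse 3 was the lowest of its group for Lgals1.

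**Figure D4:**
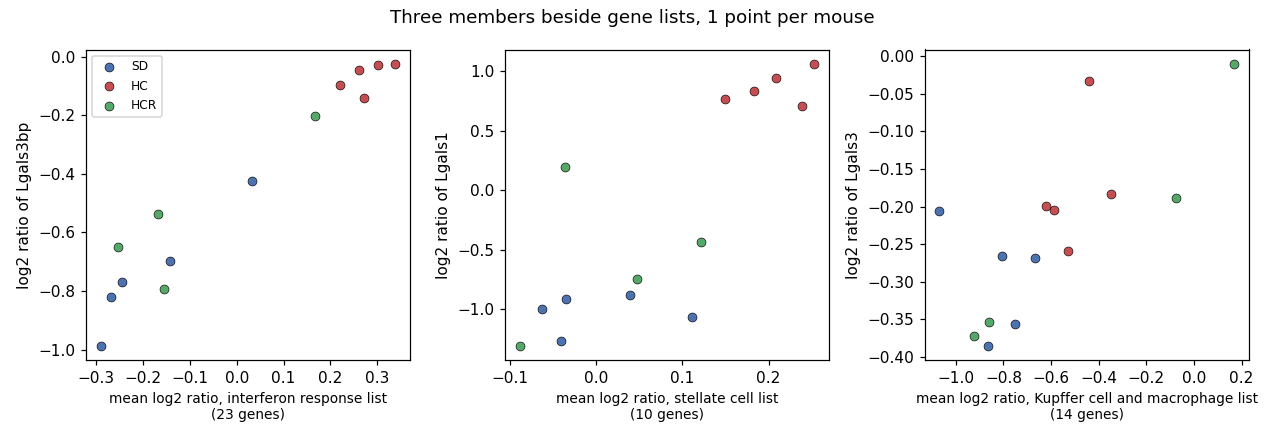
Log2 ratio of Lgals3bp, Lgals1 and Lgals3 (vertical axes) against the mean log2 ratio of the interferon response (23 genes), stellate cell (10 genes) and Kupffer cell and macrophage (14 genes) lists (horizontal axes), 1 point per mouse, with standard-diet mice (SD) in blue, high-calorie (HC) in red and resveratrol (HCR) in green. The high-calorie mice lie highest on both axes in the first panel and in the second, and resveratrol mouse 4 lies highest on both axes in the third.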

How the data were processed

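Liver RNA of 14 mice was measured on 2-colour arrays, grouped by diet as the labels give it. The deposited scanner files give, per the file headers, spot intensity and local background in both channels from Feature Extraction 7.5.1. The authors also deposited a table of scores whose log base and making are not given in the sources used here; the scores correlate at 0.983 to 0.985 with the log of processed Cy3, their column medians are -0.0497 to 0.00234, and they were used only as an alternative, rescaled to log2 units.

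In limma 3.58.1 (R 4.3.3, data.table version 1.17.8), spot means were corrected by normexp with an offset of 50 and log2 ratios normalised by loess, with the 2256 control spots of 43790 at weight 0. The 576 spots with an outlier flag were left out, and spots of a probe were averaged. Probes were matched to RefSeq symbols by systematic name (11450), accession list (6971), clone name (4503), gene name (1502) or older gene name (933), and 15815 kept the file's name. Lgals2, Lgals3 and the brighter Lgals8 probe were matched by the accession list. The brightest probe stood for its gene, and a gene was tested where 4 or more arrays had it well above background in Cy3. A linear model of the 3 diets gave differences, SE and adjusted p-values over all genes. The series' design text calls the replicates animals. The number of arrays limits the precision.

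Members and lists were chosen with earlier results of these data known. Named were all members, up to 4 passing genes per list and comparison by smallest adjusted p, or up to 2 as values where none passed, and the 3 genes most like each member. The model was tested on simulated data. In all, 30 alternatives were run, 14 of them leaving out an array; those on slide series and brightness were chosen after seeing the data.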

Additional observations from a re-analysis of the deposited data

Results flagged for a closer look

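In 45 sets of values, each 1 probe in 1 diet group, the most extreme sample was compared with the others of its group, and chance alone marks about 1 in 20 such sets. The Lgals7 probe that was dimmer by mean brightness over both channels and all arrays was far above its group in standard-diet mouse 1. Its log2 ratio there was 0.665 against 0.22 in the nearest mouse. Lgalsl was far below its group in high-calorie mouse 5, with -0.079 against 0.15 in the nearest mouse. No probe of the 7 members was marked in this way.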

How the results depend on the processing

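Lgals1 was called higher in high-calorie than in standard-diet mice under all 30 alternatives, with differences of 1.48 to 2.12, Lgals3bp under 29 (0.46 to 0.92) and Lgals8 under 28 (0.26 to 0.73, not within image extraction day 2 or with the deposited scores). In resveratrol against high-calorie mice Lgals1 was called under 28 of 29 (-1.69 to -1.19) and Lgals3bp under 16. No called difference changed sign. The number of members called in the first comparison was 1 within day 2, 2 with the deposited scores and 4, with Lgals4 added, with array weights. In the second it was 1 with processed signals, median scaling, deposited scores, a replicate block, a day block or slide series 2 alone, and 0 within day 1. In resveratrol against standard-diet mice it was 1 with array weights or within day 1. Leaving out each array gave 3 to 4, 1 to 2 and 0 to 1 members in the 3 comparisons.

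For the other galectins the first count of 1 became 0 on day 2, with the mean of all probes or with probes well above background on all arrays, and 2 with array weights, and with median scaling the gene called was Lgalsl in place of Lgals7. The second count became 0 with both probe rules, processed signals, median scaling, Cy3 alone, scores, the replicate and day blocks, day 1 alone and slide series 2 alone. The glycoprotein count of 3 against the standard diet became 1 with scores (Ptprc) or the mean of all probes (Mertk), 2 with median scaling (Lamp1 and Spn, neither among the 3), and 0 with Cy3 alone, either day alone, slide series 2 alone or the brightness covariate. In the second comparison it became 1 with the replicate block (Mertk), and 0 with median scaling, Cy3 alone, scores, the mean of all probes, the day block, day 1 alone, the slide block or slide series 2 alone. Glycan enzymes, 0 in the first comparison, had 2 with median scaling or array weights and 1 with probes well above background on all arrays, and in the second 1 without background correction or with array weights. Damaged-vesicle genes had 2 with median scaling or array weights. Leaving out each array gave 1 to 2 and 0 to 1 other galectins in the first and second comparison, 0 to 4, 0 to 4 and 0 to 1 glycoproteins, 0 to 1 glycan enzymes in each comparison and 0 to 1 damaged-vesicle genes in the first. The glycan enzyme call of the first comparison came without standard-diet mouse 2 or 5 or resveratrol mouse 3, that of the second without standard-diet mouse 2 or resveratrol mouse 2 and that of the third without standard-diet mouse 2. The damaged-vesicle call and the further galectin came without standard-diet mouse 5, and the glycoprotein call of the third comparison without resveratrol mouse 1. The cause of these changes was not tested.

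Equal replicate numbers did not deviate together (correlations of -0.19 to 0.302 between same-numbered arrays), so they were not taken as pairs. With the replicate block the calls over all genes went from 3002 to 2785, from 1755 to 441 and from 72 to 48. Calls over all genes in the first comparison ran from 52 within day 2, where 5 arrays remained, to 6658 with array weights. Slide series 2 held resveratrol mouse 2 alone of its group and is left aside for the second comparison and the third. Calls ran from 45 with the scores to 3069 with array weights in the second. In the third they ran from 4 with the scores to 234 without resveratrol mouse 3. Dim probes such as those of Lgals2 and Lgals7 sit close to background, which limits their differences.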
